A study of Mus musculus with 12 samples.

Results

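Neonatal skeletal muscle fibroblasts treated with aldosterone were compared with the same cells treated with vehicle after 48 hours, gene by gene. The genes described are the 15245 of 27319 in the deposited table whose mean was at least 10 normalized counts over the 8 libraries of the comparison. They held 99.9% of all normalized counts. The genes just inside and just outside this threshold had means of 10.0 and 9.996 normalized counts. The fibroblasts came from hindlimb muscles of 2 C57BL/10 wild-type mice at postnatal day 3, were enriched by adherence to plastic and were used at passage 2. All plates were kept for 24 hours in serum stripped of steroids with charcoal before treatment, and then received 1 µM aldosterone or DMSO as vehicle. Cells were pooled within each mouse and re-plated, with 2 replicate plates per mouse and treatment, which gave 4 libraries per group. Each library carries a sample number and a biological replicate number, written here as 1_1, 1_2, 2_1 and 2_2. It is not stated in the labels which number marks the mouse. P-values over 4 libraries per group therefore measure the spread between plates from 2 mice. The remaining treatment of the study, spironolactone, is used below only to set values side by side.

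Aldosterone is the steroid hormone that binds the mineralocorticoid receptor (MR, encoded by *Nr3c2*), and at high concentrations it also binds the glucocorticoid receptor (GR, encoded by *Nr3c1*). Both are transcription factors that leave their chaperones in the cytoplasm on binding hormone, enter the nucleus and recognize the same DNA element, an inverted repeat with a spacer of 3 bases. In the kidney MR raises sodium reabsorption, whereas in muscle and heart it has been linked to fibrosis and inflammation. Which receptor was active in these fibroblasts was not tested.

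The label of fibroblast was checked against marker genes. All 12 fibroblast markers, among them *Col1a1*, *Col3a1*, *Pdgfra* and *Vim*, had means of at least 10, and their summed level lay between 1019440 and 1135600 normalized counts with aldosterone and between 1163140 and 1255110 with vehicle. Of the markers of other cell types, some were near 0 and others were not. *Ptprc* of leukocytes averaged 0 normalized counts with aldosterone and 0.663 with vehicle, *Myod1* of myoblasts 1.83 and 2.58, *Pecam1* of endothelium 2.85 and 6.57, and *Epcam* of epithelium 0.657 and 0.268. In contrast, *Tnmd* of tenocytes averaged 1852 with aldosterone and 2210 with vehicle, *Scx* of tenocytes 1075 and 1828, *Myh11* of mural cells 1215 and 1205, *Tek* of endothelium 523 and 444, *Acta1* of muscle 236 and 539, and *Lyz2* of macrophages 153 and 165. Summed marker levels did move with treatment for 4 lists. Levels were higher with aldosterone for endothelium (697 to 775 against 486 to 545) and adipocytes (1221 to 1451 against 397 to 500.0). They were lower for fibroblasts and for myoblasts and muscle (214 to 452 against 527 to 789). Each of these 4 had an exact permutation p of 0.0286, the smallest that 4 libraries against 4 allow. The largest part of the fibroblast sum was *Col1a1*, with means of 453028 with aldosterone and 570625 with vehicle. The single fibroblast markers did not all follow the sum. By limma at an adjusted p of 0.05 or less, *Pdgfra* (log2 fold change 0.91), *S100a4* (0.71), *Vim* (0.48), *Ly6a* and *Pi16* were higher. Only *Col3a1* (-0.43) of the 12 was lower by that test. Called, by the thresholds given below, were *Ly6a* and *Pi16* of the 12 fibroblast genes (higher), *Fabp4* and *Plin1* of 5 adipocyte genes with a mean of at least 10 (higher), *Kdr* of 4 endothelial genes (higher) and *Acta1* of 2 muscle genes (lower). The sums did not separate by treatment for macrophages (245 to 280 against 251 to 317, p = 0.543), mural cells (16573 to 23659 against 19694 to 25263, p = 0.229), tenocytes (51479 to 58103 against 51881 to 57264, p = 0.686), Schwann cells (422 to 583 against 318 to 449.8, p = 0.0571) or epithelium (19.4 to 26.7 against 8.39 to 26.8, p = 0.314), in 2-sided exact permutation tests. The share of counts in mitochondrial genes was 1.60 to 1.78% with aldosterone and 1.52 to 1.61% with vehicle (2-sided exact permutation test, p = 0.0571). The part of any change in cell composition in the results was not tested, and in bulk RNA fewer cells of a type and less RNA per cell cannot be told apart.

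Aldosterone compared to vehicle treatment raised 300 of the 15245 genes (1.97%) and lowered 121 (0.794%). A gene was called where its adjusted p was 0.05 or less and its log2 fold change was 1 or more, or -1 or less. At any fold change, 1471 genes were higher (9.65%) and 1233 lower (8.09%) by the adjusted p alone, and counts at any fold change below have the same meaning. Large increases outnumbered large decreases. The log2 fold change was at least 2 in 96 of the genes called higher and at least 4 in 17 of them, and -2 or less in 6 of those called lower. Over all 15245 genes the median log2 fold change was -0.0033, against 1.59 for genes called higher and -1.28 for those called lower. Genes called higher took up 2.38 to 2.57% of the normalized counts of each aldosterone library and 0.803 to 0.849% of each vehicle library. Those called lower took up 0.181 to 0.263% with aldosterone and 0.451 to 0.583% with vehicle. Most called genes were protein-coding, 277 of those higher and 110 of those lower, and 19 and 7 were lncRNA genes. With the sample number as a block, 320 genes were called higher, 154 lower and 4341 at any fold change. When the replicate plates of a sample number were averaged first, which leaves 2 values per group, these counts were 224, 53 and 784. Leaving out each library in turn left between 258 and 274 called higher and between 69 and 88 called lower, of which 220 and 47 were called in every case.

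**Figure D1:**
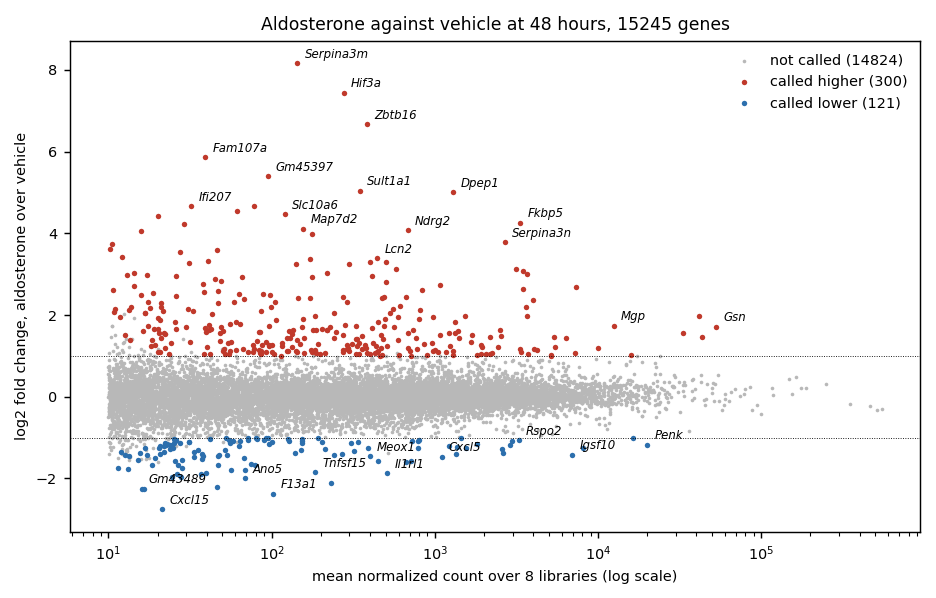
Log2 fold change of aldosterone over vehicle (vertical axis) against the mean normalized count over 8 libraries (horizontal axis, log scale) for 15245 genes, 1 point each. The 300 genes called higher are red, the 121 called lower are blue, dotted lines mark log2 fold changes of 1 and -1, and the increases reach 8.17 while the decreases reach -2.76.

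Most genes with a known response to glucocorticoids or mineralocorticoids rose. Of 29 such genes with a mean of at least 10, 19 were called higher and 0 lower. Over these 29 genes the median change was 1.52 on the log2 scale, and 25 were higher and 0 lower at any fold change (24 to 26 and 0 without 1 library, 26 and 0 with the block). Since the genes of this and the following lists were chosen with earlier results of these data known, the counts are descriptions. Beside them stand the shares over all 15245 genes, 1.97% called higher and 0.794% lower, and 9.65% and 8.09% at any fold change. *Zbtb16* (ENSMUSG00000066687), a zinc finger repressor on chromosome 9 from 48565597 to 48747522 (coordinates of the deposited table), had normalized counts of 876, 822, 701 and 642 with aldosterone and 10.1, 2.93, 4.88 and 10.7 with vehicle. The log2 fold change of *Zbtb16* was 6.67 ± 0.284 (SE, adjusted p = 1.06e-10). Values are given in the order of libraries 1_1, 1_2, 2_1 and 2_2 throughout, and adjusted p-values are those of limma with Benjamini-Hochberg adjustment. *Fkbp5* (ENSMUSG00000024222), on chromosome 17 from 28618068 to 28736501, encodes a co-chaperone that holds steroid receptors in a state of low affinity for hormone. It had normalized counts of 7026, 6182, 6143 and 5970.2 with aldosterone and 367, 338, 340.5 and 276 with vehicle, with no overlap of the groups, and a log2 fold change of 4.26 ± 0.0815 (SE, adjusted p = 4.02e-15).

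*Tsc22d3*, which encodes the glucocorticoid-induced leucine zipper GILZ, was one of the most abundant genes of the group, with 12460.0, 12016, 12991 and 13111 with aldosterone and 1997, 1916, 1998 and 1921 with vehicle, and a log2 fold change of 2.69 ± 0.0511 (SE, adjusted p = 4.02e-15). The spread within each group was small beside the difference. *Sgk1*, a kinase that keeps epithelial sodium channels at the membrane and is a classical aldosterone target, had 6264, 6140.3, 5298 and 5540.0 with aldosterone and 1612, 1673, 1357 and 1269 with vehicle (3.93-fold, log2 fold change 1.98, adjusted p = 1.04e-10). *Fam107a*, a stress-responsive actin-binding protein, had 0, 0, 0 and 2.15 normalized counts with vehicle and between 64.6 and 99.7 with aldosterone. Its 333 reads with aldosterone against 2 with vehicle gave a ratio of 154 once scaled for depth, with a counting interval (95%, exact) of 42.4 to 1281. *Serpina3m*, a serine protease inhibitor gene, was the gene of the largest fitted change and the only called gene with no read in any vehicle library, at least 93.5-fold higher against a floor of 3 reads per library.

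The other called genes of this group were *Sult1a1*, a phenol sulfotransferase (5.05), *Ndrg2*, a stress-responsive gene (4.08), *Lcn2*, the iron-siderophore carrier lipocalin 2 (3.39), the metallothioneins *Mt2* (3.26) and *Mt1* (2.20), *Glul*, glutamine synthetase (3.13), *Pdk4*, the kinase that shuts pyruvate dehydrogenase (2.73), *Cdkn1c*, the cell cycle inhibitor p57 (2.64), *Per1* of the circadian clock (1.83), *Errfi1*, an inhibitor of the EGF receptor (1.52), *Cebpd*, a transcription factor of early adipogenesis (1.46), *Rgs2*, which limits signaling by Gq-coupled receptors (1.42), *Klf9* (1.13) and *Tgfbr3*, the TGF-beta co-receptor betaglycan (1.05), all as log2 fold changes. In each of these 14 genes the lowest aldosterone library was above the highest vehicle library, a separation that the call itself makes likely. *Anxa1* (0.99) and *Dusp1* (0.93), mediators of the anti-inflammatory action of glucocorticoids, were higher by an adjusted p but below the fold change threshold. The 4 genes of the list that passed neither, named after their values were seen, were *Tnfaip3* (-0.05), *Rhob* (0.15), *Angptl4* (0.29) and *Mfsd2a* (0.49).

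**Figure D2:**
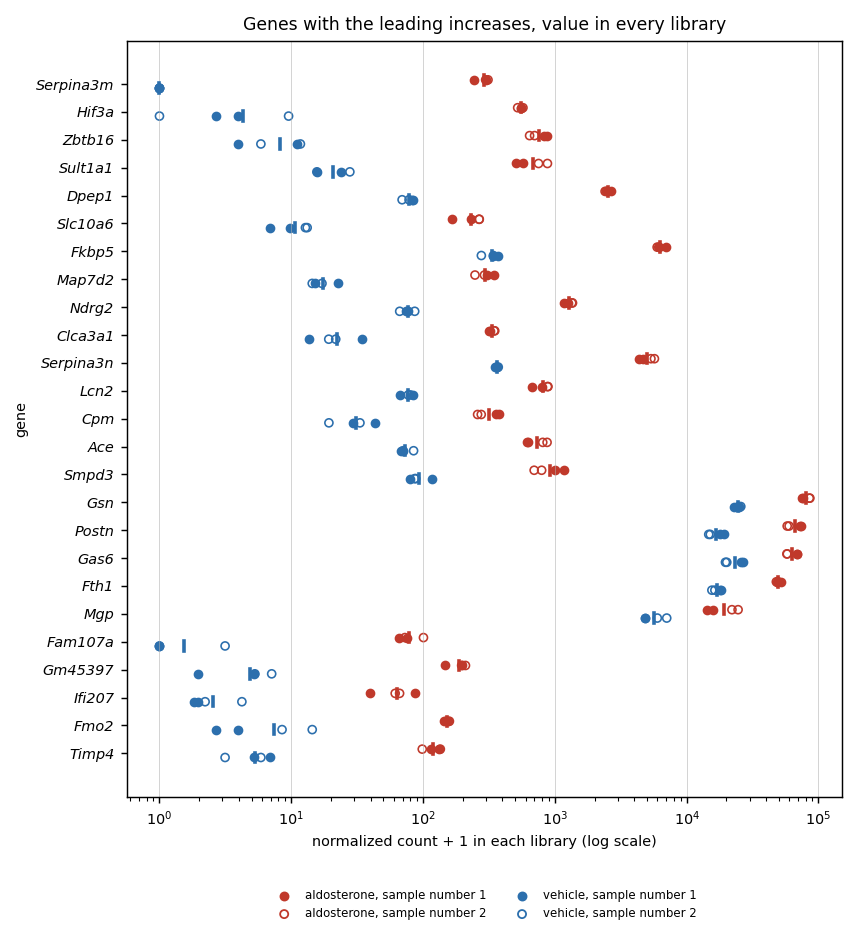
Normalized count + 1 in each of the 8 libraries (horizontal axis, log scale) of the 15 genes with the largest log2 fold change at a mean of at least 100 normalized counts, the 5 with the largest change of the mean and the 5 with the largest log2 fold change at lower means. Red points are aldosterone and blue points vehicle, filled for sample number 1 and open for sample number 2, and vertical bars are group means. In each gene all aldosterone libraries lie to the right of all vehicle libraries. This separation was a condition of the choice for the 15 genes and for the 5 at lower means.

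DNA upstream of genes was searched for the inverted repeat that MR and GR recognize, in windows of 250 bases before to 50 bases after each annotated gene start (RefSeq, GRCm38.p6, another build than that of the counts). The letters searched were GNACANNNTGTNC, in which N is any base, on both strands, a pattern that relaxes the full element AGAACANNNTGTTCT and so includes all of its matches. The relaxed pattern was present in 156 of 32851 windows (0.475%) and the full element in 3 (0.00913%). A window was found by symbol for 216 of the 300 genes called higher, which is 72.0% and below the 80% needed, so that the share of called genes with a match is void and is not given. Among the 89 named genes called higher, 67 had a window (75.3%), and 7 held a match: *Sgk1*, *Serpina3n*, *Slc10a6*, *Fam107a*, *Mt1*, *Map7d2* and *Txnip*. Of the 35 named genes called lower, 26 had a window (74.3%) and 0 held a match. Both shares with a window are also below 80%, and the genes were named with earlier results known. Since a gene can have several windows, these counts by gene cannot be set against the share of all windows. A match is a run of letters and not a measured binding site, and elements farther from the start were not searched. The windows of 5 of these are given 5′ to 3′ on the strand of the gene, with the match in capitals, because they show where in the promoter the repeat lies in genes called higher with log2 fold changes between 1.98 and 5.87. They are those of *Sgk1* (chr10:21993640-21993939, plus strand), the only called gene named here with the full element, *Serpina3n* (chr12:104406458-104406757, plus strand), *Slc10a6* (chr5:103629354-103629653, minus strand), *Fam107a* (chr14:8309728-8310027, minus strand) and *Mt1* (chr8:94178839-94179138, plus strand).
Sgk1: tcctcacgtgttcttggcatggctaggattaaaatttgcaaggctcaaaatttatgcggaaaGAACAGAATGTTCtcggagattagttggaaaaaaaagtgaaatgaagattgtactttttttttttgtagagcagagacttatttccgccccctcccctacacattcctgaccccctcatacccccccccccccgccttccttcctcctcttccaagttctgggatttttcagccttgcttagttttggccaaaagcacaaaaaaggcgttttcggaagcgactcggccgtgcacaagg
Serpina3n: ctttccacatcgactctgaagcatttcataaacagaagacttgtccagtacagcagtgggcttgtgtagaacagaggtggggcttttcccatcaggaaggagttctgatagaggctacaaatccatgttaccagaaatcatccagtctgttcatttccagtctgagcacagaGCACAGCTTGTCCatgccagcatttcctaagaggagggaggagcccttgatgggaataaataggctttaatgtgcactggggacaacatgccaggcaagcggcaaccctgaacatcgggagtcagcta
Slc10a6: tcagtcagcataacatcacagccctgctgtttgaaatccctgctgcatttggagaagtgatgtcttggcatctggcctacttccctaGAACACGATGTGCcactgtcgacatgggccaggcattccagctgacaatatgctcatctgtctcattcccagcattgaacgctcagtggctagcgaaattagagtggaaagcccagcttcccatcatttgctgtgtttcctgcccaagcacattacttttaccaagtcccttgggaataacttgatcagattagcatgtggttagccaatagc
Fam107a: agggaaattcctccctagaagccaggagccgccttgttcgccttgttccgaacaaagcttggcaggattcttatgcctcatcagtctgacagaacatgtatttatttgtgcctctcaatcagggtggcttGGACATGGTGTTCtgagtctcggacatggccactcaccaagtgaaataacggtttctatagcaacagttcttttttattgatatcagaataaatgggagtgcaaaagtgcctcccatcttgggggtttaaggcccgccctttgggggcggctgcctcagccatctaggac
Mt1: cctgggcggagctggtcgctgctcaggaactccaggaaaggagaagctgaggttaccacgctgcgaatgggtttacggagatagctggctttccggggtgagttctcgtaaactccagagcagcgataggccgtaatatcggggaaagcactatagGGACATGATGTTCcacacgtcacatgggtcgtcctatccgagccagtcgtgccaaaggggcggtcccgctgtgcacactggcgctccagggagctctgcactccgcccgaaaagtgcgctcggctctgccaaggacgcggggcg
The match ended 175 bases before the annotated start in *Sgk1*, 65 in *Serpina3n*, 150 in *Slc10a6*, 107 in *Fam107a* and 81 in *Mt1*.

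The machinery of the hormone itself moved less. In the list of steroid receptors, their chaperones and pre-receptor enzymes (20 genes, median log2 fold change -0.10), 1 gene was called higher and 0 lower, and 3 were higher and 2 lower at any fold change (1 to 3 and 2 to 3 without 1 library, 3 and 4 with the block). *Nr3c1* fell, with 2182, 2177, 2081 and 2240.2 with aldosterone and 2715, 2892, 2911 and 3003 with vehicle and a log2 fold change of -0.41 ± 0.0535 (SE, adjusted p = 6.48e-05). *Nr3c2* had 7.75, 14.5, 13.8 and 22 with aldosterone and 16.8, 22.4, 53.7 and 56.9 with vehicle, which overlapped between groups, and a log2 fold change of -1.21 ± 0.419 (SE, adjusted p = 0.0853), with an adjusted p of 0.00794 once the sample number was a block. Per kilobase of gene length, *Nr3c1* was at 375 normalized counts and *Nr3c2* at 5.79 with vehicle, a ratio of 64.8. With aldosterone they were at 282 and 2.24, a ratio of 126. Both ratios rest on the low counts of *Nr3c2*, which overlapped between groups. With vehicle these were 16.8 and 22.4 in sample number 1 and 53.7 and 56.9 in sample number 2. Whether the ratio changed with treatment was not tested. *Hsd11b2*, the enzyme that inactivates glucocorticoids and so lets aldosterone reach MR, had 46.5, 27, 23.9 and 27.5 with aldosterone and 9.23, 1.95, 12.2 and 1.07 with vehicle, a log2 fold change of 2.54 ± 0.543 (SE, adjusted p = 0.00518) at low counts. *Hsd11b2* lost its call without aldosterone 1_1, 1_2, 2_1 or 2_2 or vehicle 1_2 or 2_2 (log2 fold change from 2.08 to 2.97 and adjusted p up to 0.0917 over the 8 leave-outs). *Hsd11b1*, which makes the reverse reaction, had a log2 fold change of 0.91, adjusted p = 0.0326.

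Genes that carry out the effect of aldosterone on sodium in epithelia were in part raised. Of 12 such genes with a mean of at least 10, *Wnk4*, a kinase that controls sodium-chloride cotransport, *Sgk1* and *Atp1b1*, the beta subunit of the sodium-potassium pump, were called higher. *Wnk4* had 970.1, 780.4, 922 and 731 with aldosterone and 205, 203, 207 and 205 with vehicle (log2 fold change 2.04, adjusted p = 2.07e-10). *Atp1b1* had 431, 469, 358 and 387 with aldosterone and 185, 207, 157 and 164 with vehicle (log2 fold change 1.20, adjusted p = 1.38e-06). The median of the list was 0.17, and 5 were higher and 0 lower at any fold change (4 to 5 and 0 without 1 library, 6 and 0 with the block). The subunits *Scnn1b* and *Scnn1g* of the epithelial sodium channel and the cotransporter *Slc12a3* had means under 10.

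Among the other genes of the largest increases, *Hif3a*, *Dpep1*, *Slc10a6*, *Map7d2*, *Clca3a1*, *Serpina3n*, *Cpm*, *Ace* and *Smpd3* had log2 fold changes between 3.29 and 7.44 at means of at least 100 normalized counts. *Dpep1* (ENSMUSG00000019278, chromosome 8 from 123912981 to 123928551), a dipeptidase that cleaves leukotriene D4 and glutathione products, had 2492, 2678, 2404 and 2460.0 with aldosterone and 81.4, 82.9, 68.3 and 77.3 with vehicle and a log2 fold change of 5.00 ± 0.0805 (SE, adjusted p = 8.04e-16). *Slc10a6*, a transporter of sulfated steroids, had 164, 229, 265 and 266 with aldosterone and 5.87, 8.78, 12.2 and 11.8 with vehicle (log2 fold change 4.46, adjusted p = 3.28e-09). *Clca3a1* had 320.3, 316, 349 and 345 with aldosterone and 12.6, 33.2, 20.7 and 18.2 with vehicle (log2 fold change 3.99, adjusted p = 2.93e-09). Both *Cpm*, a membrane carboxypeptidase (3.38), and *Smpd3*, a neutral sphingomyelinase (3.29), were higher by group means (10.4-fold and 9.99-fold). At lower means, the lncRNA gene *Gm45397* (5.39), *Ifi207* (4.66), *Fmo2* (4.66) and *Timp4* (4.55) followed *Fam107a* (5.87). *Timp4* lies within *Syn2* on the other strand, which was also called higher at a mean of 17.3 normalized counts, and without a stated strand setting the reads of such pairs cannot be told apart. Of the 132 genes named by rule, 18 overlapped another of the 15245, 14 of them on opposite strands.

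The largest shifts of RNA by amount were in 5 abundant genes: *Gsn*, *Postn*, *Gas6*, *Fth1* and *Mgp*. *Postn* (periostin, a matrix protein of fibrosis and wound repair) had 73592, 72086, 57901 and 59865 with aldosterone and 19302, 18031, 15107 and 14705 with vehicle (3.92-fold, log2 fold change 1.97, adjusted p = 6.76e-10). *Gas6*, the ligand of the TAM receptor kinases, had 68204, 68358, 58007 and 57596 with aldosterone and 26827, 25965, 19695 and 20153 with vehicle (2.72-fold, log2 fold change 1.45, adjusted p = 4.49e-08). *Fth1*, the heavy chain of the iron store ferritin, had 48645, 52169, 47911 and 49575 with aldosterone and 18162, 17819.9, 16366 and 15537 with vehicle (2.92-fold, log2 fold change 1.55, adjusted p = 8.04e-11). *Postn*, *Gas6* and *Fth1* were already abundant in the vehicle libraries, at 16786 to 23160 normalized counts by group mean. In none of them did an aldosterone library overlap a vehicle library. *Mgp*, the matrix Gla protein that inhibits calcification, had 14201, 15978, 22059 and 24567 with aldosterone and 4801, 4834, 7058 and 5988 with vehicle (3.39-fold, log2 fold change 1.74, adjusted p = 5.75e-07), with both sample numbers raised from different levels. *Fth1* has many processed pseudogenes, and how the counting treated reads shared with them is not stated.

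The genes called lower had smaller changes. *F13a1* (ENSMUSG00000039109, chromosome 13 from 37051152 to 37234220), the A subunit of coagulation factor XIII, had 227, 212, 106 and 131 with vehicle and 40, 64.6, 17.5 and 18.1 with aldosterone, a log2 fold change of -2.38 ± 0.354 (SE, adjusted p = 0.000225). Its libraries did not overlap between groups, but levels were higher in sample number 1 under both treatments, and with the plates of a sample number averaged its adjusted p was 0.053. *1520401A03Rik* had 328, 379.6, 358 and 433 with vehicle and 80.1, 80.9, 89.3 and 95 with aldosterone (log2 fold change -2.10, adjusted p = 2.53e-09). *Il1rl1*, the receptor of interleukin 33, had 709.7, 749, 860.3 and 902 with vehicle and 225, 176, 222 and 255 with aldosterone (log2 fold change -1.88, adjusted p = 5.18e-09). *Tnfsf15*, a TNF family ligand, had 236, 339, 301 and 287 with vehicle and 76.2, 82.9, 74.6 and 84.8 with aldosterone (log2 fold change -1.85, adjusted p = 3.98e-08). *Hgf*, hepatocyte growth factor, which activates muscle stem cells, fell from 1073 ± 111 to 361 ± 38.2 normalized counts (SD, n = 4; log2 fold change -1.57, adjusted p = 4.3e-09). *Gm43489* (-2.26) lies within *Hgf* on the same strand, so reads of the pair may not be separable. *Gm43489* lost its call without vehicle 2_2 (log2 fold change from -2.51 to -1.82 and adjusted p up to 0.0535 over the 8 leave-outs).

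*Ptgs2*, the inducible cyclooxygenase COX-2, had 1301, 1416, 614 and 696 with vehicle and 459.9, 439, 222 and 203 with aldosterone (log2 fold change -1.60, adjusted p = 0.000911). Within each sample number the reduction was of the same size (log2 -1.59 and -1.62), while the levels differed between the sample numbers. *Ptgs2* lost its call without aldosterone 2_1 or 2_2 or vehicle 1_1 or 1_2 (log2 fold change from -1.81 to -1.40 and adjusted p up to 0.0854 over the 8 leave-outs, and 0.102 with plates averaged, also without a call), whereas with the sample number as a block its adjusted p was 4.04e-18. *Meox1*, a homeobox factor linked to fibroblast activation, had 529, 430.3, 689 and 696 with vehicle and 156, 171, 273 and 256 with aldosterone (log2 fold change -1.46, adjusted p = 2.9e-05). *Dbp*, a circadian output factor, had 357, 376, 333 and 335 with vehicle and 96.9, 146, 145 and 139 with aldosterone (log2 fold change -1.42, adjusted p = 9.23e-07). At means below 100 normalized counts, the largest decreases were those of *Cxcl15* (-2.76), *Tph2*, neuronal tryptophan hydroxylase (-2.25), *Gjb2*, connexin 26 (-2.22), and *Ano5*, a membrane protein of muscle (27 ± 4.22 normalized counts with aldosterone and 111 ± 16.7 with vehicle).

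By amount of RNA, *Penk*, *Sema3c*, *Sfrp2*, *Igsf10* and *Rspo2* fell most. *Penk*, the precursor of the enkephalins, had 19769.6, 16360.1, 37848 and 35462 with vehicle and 6799.6, 7807, 17690.5 and 17987 with aldosterone (log2 fold change -1.17, adjusted p = 0.0182). Aldosterone libraries of sample number 2 lay at the level of vehicle libraries of sample number 1, so that the groups overlapped except within a sample number. *Penk* lost its call whichever of the 8 libraries was left out (log2 fold change from -1.39 to -0.92 and adjusted p up to 0.268 over the 8 leave-outs, and 0.274 with plates averaged, also without a call), and DESeq2 did not call it, while its adjusted p with the block was 6.53e-17. *Igsf10* had 10587, 10569.7, 9121 and 10146 with vehicle and 3849, 3743, 3808 and 3714 with aldosterone and a log2 fold change of -1.42 ± 0.0567 (SE, adjusted p = 5.82e-11), the smallest standard error of the genes called lower. The secreted WNT regulators *Sfrp2* and *Rspo2* are given with their pathway below.

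**Figure D3:**
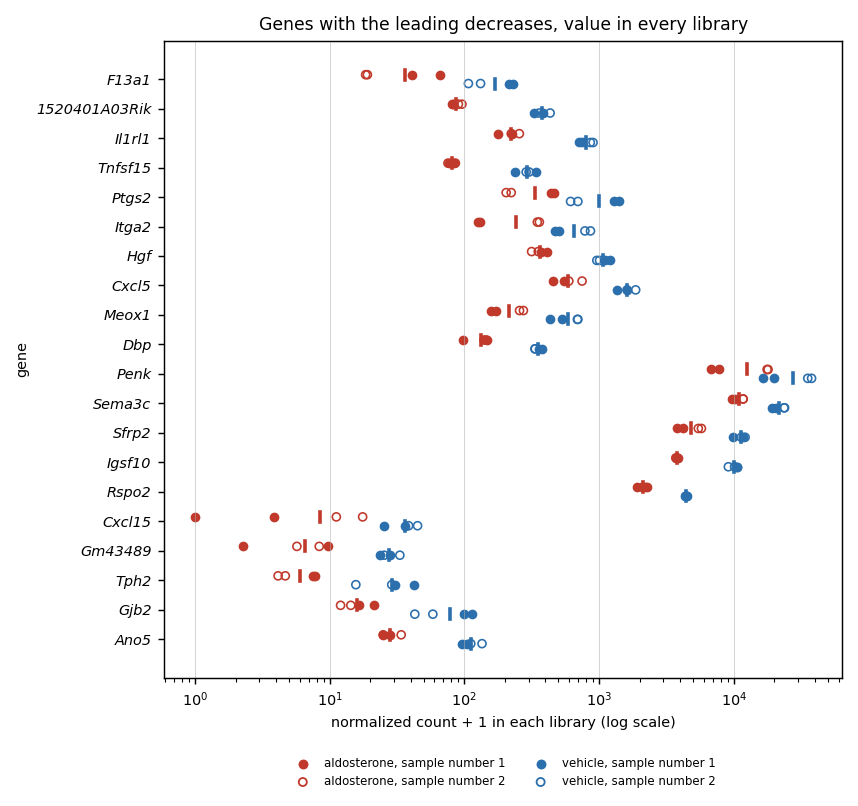
Normalized count + 1 in each of the 8 libraries (horizontal axis, log scale) of the 10 genes with the lowest log2 fold change at a mean of at least 100 normalized counts, the 5 with the largest decrease of the mean and the 5 with the lowest log2 fold change at lower means. Colors, fills and bars are as for the increases, and in several genes, among them *Ptgs2*, *Itga2*, *Penk*, *F13a1*, *Meox1* and *Sema3c*, the sample numbers lie apart within each treatment.

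Genes of redox chemistry, detoxification and metal handling included several large increases. Of 39, 13 were called higher and 0 lower, the median being 0.40, and 21 were higher and 4 lower at any fold change (19 to 21 and 1 to 3 without 1 library, 25 and 6 with the block). *Aldh1a1*, which makes retinoic acid from retinaldehyde, had 5363, 5739, 6553 and 7154 with aldosterone and 677, 711, 805 and 720.3 with vehicle (8.51-fold, log2 fold change 3.08, adjusted p = 2.83e-13). *Fmo1*, a flavin monooxygenase, had 404, 421, 648 and 644 with aldosterone and 40.3, 20.5, 92.7 and 105 with vehicle (log2 fold change 3.25, adjusted p = 1.32e-05). *Xdh*, xanthine dehydrogenase, had 1146, 1057, 1119 and 1155 with aldosterone and 194, 234, 198 and 198 with vehicle (log2 fold change 2.44, adjusted p = 3.56e-12). The antioxidant genes *Gpx3* (1.44), *Prdx6* (1.09) and *Gclc* (1.09), the last the rate-limiting enzyme of glutathione synthesis, and the related aldehyde dehydrogenase gene *Aldh1a7* (1.52) were raised less. *Mt1* and *Mt2*, *Aldh1a1* and *Aldh1a7*, and *Fmo1* and *Fmo2* are pairs of related genes, and the division of reads between them by the counting is not stated.

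Genes that set fuel use were raised in part. Of 35, 6 were called higher and 0 lower, 9 were higher and 0 lower at any fold change (5 to 8 and 0 without 1 library, 13 and 4 with the block), and the median was 0.06, close to that of all genes. *Glul* had 5485, 5549, 5693 and 5776 with aldosterone and 604, 607, 733 and 634 with vehicle (log2 fold change 3.13, adjusted p = 8.36e-15). *Pdk4* had 1801, 1816, 1966 and 1932 with aldosterone and 244, 282, 298 and 311 with vehicle (log2 fold change 2.73, adjusted p = 6.08e-13). Neither gene overlapped between groups. *Pdp1* (1.04), a phosphatase that activates pyruvate dehydrogenase and so opposes *Pdk4*, *Txnip* (1.04), an inhibitor of glucose uptake, and *Sesn1* (1.01) were called as well. *Pdp1* lost its call without aldosterone 1_2, 2_1 or 2_2 or vehicle 1_1, 1_2 or 2_2 (log2 fold change from 0.88 to 1.18 and adjusted p up to 0.122 over the 8 leave-outs, and 0.139 with plates averaged, also without a call). *Txnip* lost its call without aldosterone 2_1 or 2_2 or vehicle 1_1 or 1_2 (log2 fold change from 0.94 to 1.16 and adjusted p up to 0.0337 over the 8 leave-outs). *Sesn1* lost its call without aldosterone 2_1 or 2_2 or vehicle 1_2 or 2_2 (log2 fold change from 0.94 to 1.08 and adjusted p up to 0.00356 over the 8 leave-outs). In the list of FoxO factors and atrophy genes (21 genes, median 0.12), *Klf15* and *Sesn1* were called higher and 0 genes lower, and 9 were higher and 3 lower at any fold change (9 and 1 to 2 without 1 library, 9 and 3 with the block).

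Of 33 adipogenic and lipid handling genes, 6 were called higher and 0 lower, the median being 0.39, and 12 were higher and 1 lower at any fold change (7 to 10 and 0 to 1 without 1 library, 18 and 1 with the block). *Fabp4*, a fatty acid carrier of adipocytes, had 867, 805, 741 and 896 with aldosterone and 139, 151, 176 and 137 with vehicle (log2 fold change 2.45, adjusted p = 5.09e-11). *Klf15*, a factor induced by glucocorticoids in muscle and fat, had 694, 869, 1292 and 1193 with aldosterone and 147, 209.8, 237 and 275 with vehicle (log2 fold change 2.21, adjusted p = 4.71e-07). The lipid droplet coats *Plin1* (1.78) and *Plin4* (1.14), *Cebpd* (1.46) and the lipocalin *Apod* (1.21) were also called. With plates averaged, *Plin1* lost its call (adjusted p = 0.0502). *Apod* lost its call when any library but aldosterone 1_1 was left out (log2 fold change from 0.97 to 1.37 and adjusted p up to 0.138 over the 8 leave-outs, and 0.148 with plates averaged, also without a call). The defining adipocyte hormone *Adipoq* had 50.1 ± 32.3 normalized counts with aldosterone and 33.8 ± 14.7 with vehicle (adjusted p = 0.665), and *Pparg*, the master factor of adipogenesis, had a log2 fold change of 0.44 (adjusted p = 0.0697). The fibroblast markers of a progenitor state, *Ly6a* (22184, 23641, 18997 and 20282 with aldosterone and 11918, 11813, 9770.1 and 8584 with vehicle) and *Pi16* (252, 251, 284 and 301 with aldosterone and 94, 110.3, 131 and 113 with vehicle), were called higher as well (log2 fold changes 1.02 and 1.28).

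Matrix genes moved in both directions. Of 39 collagen genes, 2 were called higher and 0 lower, *Col24a1* (354, 328, 294 and 271 with aldosterone and 43.6, 42, 37.8 and 36.5 with vehicle, log2 fold change 2.93, adjusted p = 3.26e-10) and *Col28a1* (1.08). Of the collagens, 10 were higher and 5 lower at any fold change (9 to 10 and 3 without 1 library, 16 and 8 with the block). The chains of type VI and IV collagen that passed the adjusted p were higher, such as *Col4a1* (0.88) and *Col6a1* (0.42), while *Col3a1* (-0.43) and *Col8a2* (-0.67) were lower, examples chosen after their values were seen. *Col1a1*, the most abundant, had 453028 ± 43518 normalized counts with aldosterone and 570625 ± 22132 with vehicle (log2 fold change -0.34, adjusted p = 0.0527). Of 55 matrix glycoproteins and proteoglycans, *Postn*, *Cilp* (1.20) and *Spp1*, osteopontin (1.02), were called higher and 0 were called lower, and 14 were higher and 13 lower at any fold change (9 to 10 and 7 to 10 without 1 library, 22 and 23 with the block). The median was -0.04 for the collagens and -0.04 for the glycoproteins. *Spp1* lost its call without aldosterone 2_1 or 2_2 or vehicle 1_1 or 1_2 (log2 fold change from 0.96 to 1.09 and adjusted p up to 0.00276 over the 8 leave-outs).

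Of 20 enzymes that modify or crosslink collagen, 0 were called in either direction, and 6 were higher and 3 lower at any fold change (5 to 6 and 1 to 2 without 1 library, 8 and 4 with the block). The genes of smallest adjusted p were *Pcolce2*, an enhancer of procollagen processing (0.67, adjusted p = 5.81e-07), and the lysyl hydroxylase *Plod1* (0.40, adjusted p = 6.67e-05). Among 28 metalloproteinases, ADAMTS proteases and their inhibitors, the inhibitor *Timp4* was the only gene called, and 1 was higher and 8 lower at any fold change (1 to 2 and 6 to 8 without 1 library, 5 and 12 with the block), with a median of -0.23. Of 25 contractile and myofibroblast genes, 0 were called higher and *Lrrc15*, a marker of activated myofibroblasts, was called lower, with 60.7, 27.9, 33.1 and 30.6 with aldosterone and 82.2, 85.9, 76.9 and 67.6 with vehicle (log2 fold change -1.08, adjusted p = 0.00618), and 0 were higher and 6 lower at any fold change (0 and 3 to 6 without 1 library, 1 and 15 with the block). *Lrrc15* lost its call without aldosterone 1_2, 2_1 or 2_2 or vehicle 1_1, 1_2 or 2_1 (log2 fold change from -1.32 to -0.96 and adjusted p up to 0.0741 over the 8 leave-outs, and 0.0779 with plates averaged, also without a call). Of 51 genes of TGF-beta and BMP signaling, *Tgfbr3* and *Id4*, an inhibitor of bHLH factors (1.06), were called higher and 0 lower, and 8 were higher and 7 lower at any fold change (5 to 7 and 5 to 6 without 1 library, 13 and 20 with the block), with a median of -0.09. *Id4* lost its call without aldosterone 1_1 or 1_2 or vehicle 2_1 or 2_2 (log2 fold change from 0.92 to 1.23 and adjusted p up to 0.0645 over the 8 leave-outs, and 0.0821 with plates averaged, also without a call). With the sample number as a block its limma adjusted p was 2.55e-15.

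**Figure D4:**
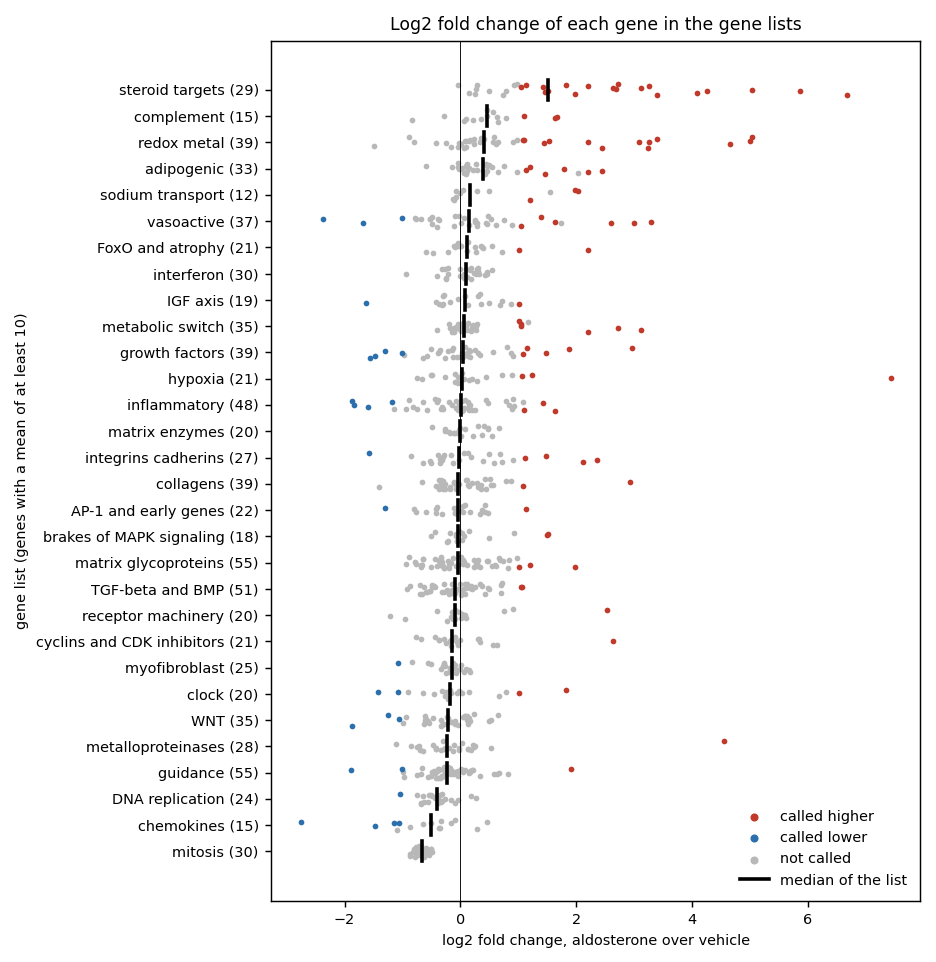
Log2 fold change of aldosterone over vehicle (horizontal axis) for each gene of 30 gene lists (rows, with the number of genes of mean at least 10), ordered by list median. Red and blue points are genes called higher and lower, black bars are medians, and the medians run from -0.66 for mitosis genes to 1.52 for genes of known steroid response.

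WNT genes that passed the test were mostly lower. Of 35 WNT ligands, receptors and secreted regulators, 0 were called higher and 3 lower, with a median of -0.21, and 1 was higher and 14 lower at any fold change (0 to 1 and 8 to 10 without 1 library, 4 and 15 with the block). *Sfrp2*, a secreted modulator of WNT signaling, had 11778, 9947, 11387 and 12147 with vehicle and 3818, 4176, 5756 and 5458 with aldosterone (log2 fold change -1.25, adjusted p = 5.87e-07). *Rspo2*, an R-spondin that amplifies WNT signals, had 4488, 4335, 4404 and 4488 with vehicle and 1913, 2253, 2093 and 2221 with aldosterone (log2 fold change -1.07, adjusted p = 2.53e-09), below the lowest vehicle library in all 4 aldosterone libraries. *Sfrp4* (-1.88) was called at 12 ± 8.54 against 40.7 ± 11.1 normalized counts. *Sfrp4* lost its call when any library but aldosterone 2_2 was left out (log2 fold change from -2.27 to -1.49 and adjusted p up to 0.12 over the 8 leave-outs, and 0.133 with plates averaged, also without a call). Of 55 semaphorin, ephrin, slit and netrin genes, *Sema3e* (736, 740.0, 757 and 911 with aldosterone and 182, 200.0, 231 and 225 with vehicle, log2 fold change 1.90, adjusted p = 9.97e-10) was called higher and *Sema3c* and *Epha5* lower, and 6 were higher and 15 lower at any fold change (4 to 5 and 9 to 13 without 1 library, 9 and 25 with the block), with a median of -0.24. The share of this list that was higher at any fold change was near the 9.65% of all 15245 genes. *Sema3c*, a secreted guidance cue, had 20552, 19215, 23619 and 23864 with vehicle and 9727, 10198, 11747 and 11733 with aldosterone (log2 fold change -1.01, adjusted p = 2.59e-07), close to the fold change threshold, and with TMM scaling its log2 fold change came to just under 1 in size and the call was lost. *Sema3c* lost its call without aldosterone 1_1 or 1_2 or vehicle 2_1 or 2_2 (log2 fold change from -1.07 to -0.96 and adjusted p up to 0.00169 over the 8 leave-outs). *Epha5*, an ephrin receptor, had a log2 fold change of -1.89, adjusted p = 0.0083. *Epha5* lost its call whichever of the 8 libraries was left out (log2 fold change from -2.18 to -1.43 and adjusted p up to 0.134 over the 8 leave-outs, and 0.133 with plates averaged, also without a call).

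Of 27 integrins and cadherins, 4 were called higher and 1 lower, with a median of -0.02, and 8 were higher and 8 lower at any fold change (7 to 8 and 4 to 5 without 1 library, 9 and 8 with the block). *Itgbl1*, a secreted protein related to integrin beta chains, had 4888, 5177, 8235 and 8392 with aldosterone and 984, 941, 1651 and 1648 with vehicle (log2 fold change 2.36, adjusted p = 3.78e-07). *Itga10*, a collagen receptor of cartilage, had 987, 848, 1707 and 1754 with aldosterone and 221, 251, 342 and 375 with vehicle (log2 fold change 2.11, adjusted p = 3.02e-06). *Cdh13*, a cadherin with a lipid anchor, had 3919, 3950.3, 3634 and 3527 with aldosterone and 1367, 1231, 1397 and 1379 with vehicle (log2 fold change 1.48, adjusted p = 7.15e-11). In *Itgbl1* and *Itga10* both treatments were higher in sample number 2, with log2 fold changes of 2.39 and 2.33 in *Itgbl1* and 1.95 and 2.27 in *Itga10*. *Itga4* (1.11) was raised, although with plates averaged its adjusted p was 0.067 and its call was lost. The collagen receptor *Itga2*, with 508, 469, 863 and 785 with vehicle and 129, 124, 347 and 359 with aldosterone, was lowered (log2 fold change -1.58, adjusted p = 0.00227). *Itga2* lost its call without aldosterone 1_1 or 1_2 or vehicle 1_1, 1_2, 2_1 or 2_2 (log2 fold change from -1.83 to -1.32 and adjusted p up to 0.116 over the 8 leave-outs, and 0.142 with plates averaged, also without a call). With the sample number as a block its limma adjusted p was 1.12e-13, and its log2 fold changes were -1.94 and -1.22 in sample numbers 1 and 2.

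Growth factor genes moved in both directions, 5 called higher and 4 lower of 39, with a median of 0.05, and 9 were higher and 10 lower at any fold change (8 to 9 and 7 to 9 without 1 library, 13 and 13 with the block). *Tgfa*, a ligand of the EGF receptor, had 718, 671, 765 and 762 with aldosterone and 68.8, 69.3, 109.8 and 139.5 with vehicle (7.53-fold, log2 fold change 2.96, adjusted p = 7.71e-09). Genes of the vascular endothelial growth factor family were among those raised. *Vegfd*, a lymphangiogenic ligand, had 8159.8, 8029.7, 7437 and 7968 with aldosterone and 3042, 2865, 2619 and 2856 with vehicle (log2 fold change 1.47, adjusted p = 4.57e-11), *Vegfc* had a log2 fold change of 1.08, adjusted p = 1.77e-06, and the receptors *Flt1* (1.14, adjusted p = 0.000103) and *Kdr* (1.88, adjusted p = 0.00183) were called as well, while *Vegfa* was lower (-0.51). *Kdr* had 240.3, 233, 106 and 92.6 with aldosterone and 52, 74.2, 32.9 and 21.5 with vehicle. None of the other 7 endothelial markers passed the limma test, with log2 fold changes of -0.95 for *Pecam1*, -0.05 for *Cldn5*, 0.24 for *Esam*, 0.23 for *Tek*, 0.68 for *Emcn*, 0.73 for *Cdh5* and 0.74 for *Vwf*, while the summed level of the list was higher with aldosterone, as given above. The part of endothelial cells in the rise of *Kdr* was not tested. *Kdr* lost its call without aldosterone 1_1, 1_2 or 2_1 or vehicle 1_1, 2_1 or 2_2 (log2 fold change from 1.59 to 2.17 and adjusted p up to 0.0921 over the 8 leave-outs, and 0.111 with plates averaged, also without a call). Apart from *Hgf*, *Fgf21* (-1.48), *Fgf5* (-1.30) and *Nrg1* (128 ± 6.7 against 259 ± 48.8 normalized counts) were called lower, and with TMM scaling *Nrg1* had a log2 fold change of -0.99 and was not called. With plates averaged, *Fgf21* (adjusted p = 0.0813) and *Fgf5* (adjusted p = 0.0656) lost their calls. *Nrg1* lost its call without aldosterone 1_1 or vehicle 2_1 or 2_2 (log2 fold change from -1.10 to -0.89 and adjusted p up to 0.00815 over the 8 leave-outs). Of 19 genes of the IGF axis, *Igfbp3*, the main carrier of IGF in plasma (1.02), was called higher and *Stc1*, stanniocalcin 1 (-1.64), lower, and 7 were higher and 4 lower at any fold change (4 to 5 and 2 to 3 without 1 library, 9 and 7 with the block), with a median of 0.07. *Igfbp3* lost its call without aldosterone 2_1 or vehicle 1_2 (log2 fold change from 0.95 to 1.06 and adjusted p up to 0.000744 over the 8 leave-outs).

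Genes of vascular tone and coagulation included several large changes. Of 37, 6 were called higher and 3 lower, with a median of 0.15, and 11 were higher and 8 lower at any fold change (7 to 10 and 6 to 7 without 1 library, 15 and 11 with the block). *Ace*, which makes angiotensin II, had 624, 618, 872 and 808 with aldosterone and 69.6, 67.3, 69.6 and 83.7 with vehicle (10.1-fold, log2 fold change 3.30, adjusted p = 3.2e-11). *Agt*, angiotensinogen, had 202, 238, 342 and 345 with aldosterone and 81.4, 52.7, 122 and 112 with vehicle (log2 fold change 1.64, adjusted p = 0.000125). All 3 receptor activity-modifying proteins, the partners that turn the calcitonin-like receptor into receptors of CGRP and adrenomedullin, were called higher. *Ramp2* had 1367, 1508, 1469 and 1360.3 with aldosterone and 255, 222, 226 and 234 with vehicle (6.09-fold, log2 fold change 2.60, adjusted p = 4.39e-13). *Ramp3* had 20.3 ± 8.45 against 7.02 ± 2.65 (log2 fold change 1.38, adjusted p = 0.0349) and *Ramp1* 266 ± 36.6 against 129 ± 23.8 (log2 fold change 1.04, adjusted p = 8.95e-05). Their receptor *Calcrl* was lower (-0.48, adjusted p = 0.00351) and the ligand *Adm* higher (0.90, adjusted p = 4.12e-07), both below the fold change threshold. *Ramp3* lost its call when any library but vehicle 2_1 was left out (log2 fold change from 1.14 to 1.59 and adjusted p up to 0.107 over the 8 leave-outs, and 0.149 with plates averaged, also without a call). *Ramp1* lost its call without aldosterone 1_1 or 1_2 or vehicle 2_1 or 2_2 (log2 fold change from 0.94 to 1.13 and adjusted p up to 0.0138 over the 8 leave-outs). *Ednrb*, an endothelin receptor (-1.68), *F13a1* and *Angptl1* (-1.01) were called lower. *Angptl1* lost its call without aldosterone 1_1, 1_2 or 2_2 or vehicle 1_1, 2_1 or 2_2 (log2 fold change from -1.18 to -0.86 and adjusted p up to 0.0741 over the 8 leave-outs, and 0.0936 with plates averaged, also without a call).

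Of 21 hypoxia-inducible factors and targets, *Hif3a*, *Egln3*, a prolyl hydroxylase that marks HIF for degradation (1.23), and *Epas1*, which encodes HIF-2 alpha (1.06), were called higher and 0 lower, and 5 were higher and 4 lower at any fold change (5 to 6 and 2 to 3 without 1 library, 8 and 4 with the block), with a median of 0.03. *Hif1a* had a log2 fold change of -0.26, adjusted p = 0.00727. *Epas1* lost its call without vehicle 1_1 or 1_2 (log2 fold change from 0.97 to 1.16 and adjusted p up to 0.00741 over the 8 leave-outs).

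No chemokine gene was higher by the adjusted p, the highest log2 fold change being 0.46. Of 15 with a mean of at least 10, 0 were called higher and 4 lower, the median being -0.51, and 0 were higher and 7 lower at any fold change (0 and 4 to 5 without 1 library, 0 and 8 with the block). *Cxcl5*, a neutrophil attractant, had 1362, 1606, 1869.6 and 1613 with vehicle and 452, 551, 596 and 747 with aldosterone (log2 fold change -1.47, adjusted p = 3.77e-07), with no overlap of the groups. *Cxcl14* had 3388, 3398, 1654 and 1509 with vehicle and 1461, 1539.7, 746 and 704 with aldosterone (log2 fold change -1.15, adjusted p = 0.0117), lower in each sample number (-1.18 and -1.12) but from different levels. *Cxcl1* (46.2 ± 9.23 against 97.4 ± 17.2) and *Cxcl15* (7.42 ± 7.46 against 35.3 ± 8.14) were called at low counts. *Cxcl14* lost its call whichever of the 8 libraries was left out (log2 fold change from -1.36 to -0.96 and adjusted p up to 0.233 over the 8 leave-outs, and 0.245 with plates averaged, also without a call), while its adjusted p with the block was 7.34e-18. *Cxcl1* lost its call without aldosterone 1_1 or vehicle 1_2 (log2 fold change from -1.19 to -0.96 and adjusted p up to 0.0339 over the 8 leave-outs). *Cxcl15* lost its call when any library but aldosterone 2_1 was left out (log2 fold change from -3.34 to -1.96 and adjusted p up to 0.17 over the 8 leave-outs, and 0.158 with plates averaged, also without a call).

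The wider list of cytokines, receptors and inflammatory regulators was split, with 3 genes called higher and 4 lower of 48, a median of 0.00, and 9 were higher and 9 lower at any fold change (8 to 9 and 6 to 8 without 1 library, 14 and 15 with the block). The genes raised were *Il1rn*, the antagonist of the interleukin 1 receptor (8103, 8896, 9726 and 10552 with aldosterone and 3099.9, 3423, 3897 and 3416 with vehicle, log2 fold change 1.43, adjusted p = 3.47e-09), *Il6ra*, the interleukin 6 receptor (1.64), and *Il34*, a ligand of the CSF1 receptor (1.09). Apart from *Il1rl1*, *Tnfsf15* and *Ptgs2*, the gene lowered was *Tnfrsf11b*, which encodes osteoprotegerin (3987, 4546, 3666 and 3748 with vehicle and 1638, 1824, 1736 and 1819 with aldosterone, log2 fold change -1.18, adjusted p = 4.83e-09). *Il34* lost its call without vehicle 1_1 (log2 fold change from 0.97 to 1.20 and adjusted p up to 0.0111 over the 8 leave-outs). Of 15 complement genes, 3 were called higher and 0 lower, with a median of 0.47, and 7 were higher and 1 lower at any fold change (5 to 6 and 1 without 1 library, 9 and 1 with the block). *C3*, the central component, had 911, 785, 1376 and 1412 with aldosterone and 314, 304, 372 and 413 with vehicle (log2 fold change 1.64, adjusted p = 2.3e-06). *C4b* had a log2 fold change of 1.09. Of 30 interferon-stimulated and antigen presentation genes, 0 were called, and 3 were higher and 0 lower at any fold change (1 to 3 and 0 to 1 without 1 library, 4 and 3 with the block), with a median of 0.09. The share of these interferon genes that was higher was near the 9.65% of all 15245 genes. The smallest adjusted p were those of *Ifitm3* (0.42, adjusted p = 0.00189) and *Ifi35* (0.46, adjusted p = 0.00317).

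All 30 genes of the mitosis list were lower at any fold change (28 to 30 without 1 library, 30 with the block), although 0 of them passed the fold change threshold. Their log2 fold changes lay between -0.87 and -0.48, with a median of -0.66. *Top2a*, the topoisomerase of condensing chromosomes, had 3378, 3434, 3321 and 3254 with vehicle and 1940.2, 2080.2, 1789.8 and 1816 with aldosterone (log2 fold change -0.81, adjusted p = 6.28e-08). Of 24 DNA replication genes, *Cdc6*, which loads the replicative helicase (-1.04, adjusted p = 0.000178), was the only one called, and 0 were higher and 17 lower at any fold change (0 and 11 to 16 without 1 library, 2 and 19 with the block), with a median of -0.40. *Cdc6* lost its call without aldosterone 2_1 or 2_2 or vehicle 1_2 (log2 fold change from -1.17 to -0.97 and adjusted p up to 0.0184 over the 8 leave-outs). In the list of G1 cyclins and CDK inhibitors (21 genes, median -0.15), *Cdkn1c* was called higher and 0 lower, and 6 were higher and 5 lower at any fold change (3 to 4 and 2 to 5 without 1 library, 6 and 9 with the block).

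Among 20 clock genes, *Per1* and *Nfil3* (1.01) were called higher and *Dbp* and *Per3* (-1.07) lower, and 4 were higher and 5 lower at any fold change (3 to 4 and 3 to 5 without 1 library, 4 and 7 with the block), with a median of -0.18. *Per3* had 813, 1009.9, 1106 and 1380.5 with vehicle and 419.8, 437, 609 and 569 with aldosterone. *Per3* lost its call without aldosterone 1_1 or vehicle 2_2 (log2 fold change from -1.20 to -0.95 and adjusted p up to 0.0224 over the 8 leave-outs). *Nfil3* lost its call without aldosterone 2_2 or vehicle 1_1 or 2_1 (log2 fold change from 0.93 to 1.08 and adjusted p up to 0.00225 over the 8 leave-outs). Of 22 AP-1 subunits and immediate early genes, *Fos* (145, 198, 185 and 147 with aldosterone and 44.5, 71.2, 104 and 101 with vehicle, log2 fold change 1.13, adjusted p = 0.00272) was called higher and the orphan receptor *Nr4a3* (-1.31, adjusted p = 0.0287) lower, and 4 were higher and 4 lower at any fold change (1 to 4 and 2 to 3 without 1 library, 5 and 6 with the block), with a median of -0.04. *Fos* lost its call without aldosterone 1_2, 2_1 or 2_2 or vehicle 1_1 or 1_2 (log2 fold change from 0.87 to 1.27 and adjusted p up to 0.0909 over the 8 leave-outs, and 0.0752 with plates averaged, also without a call). *Nr4a3* lost its call whichever of the 8 libraries was left out (log2 fold change from -1.52 to -0.95 and adjusted p up to 0.194 over the 8 leave-outs, and 0.106 with plates averaged, also without a call). Of 18 inhibitors of MAP kinase and receptor tyrosine kinase signaling, *Errfi1* (1557, 1736, 1559.7 and 1564 with aldosterone and 509, 599, 589 and 541 with vehicle, log2 fold change 1.52, adjusted p = 2.38e-10) and the phosphatase *Dusp14* (1.50, adjusted p = 5.64e-08) were called higher and 0 lower, and 4 were higher and 3 lower at any fold change (3 to 4 and 0 to 3 without 1 library, 4 and 3 with the block), with a median of -0.04. By the annotation in the deposited table, 1039 of the 15245 genes encode transcription factors, of which 14 were called higher and 8 lower, with a median log2 fold change of -0.06. Over all 15245 genes the shares called were 1.97% and 0.794%, and neither share was larger among the transcription factors. Beside those already named, *Thrb*, a thyroid hormone receptor (1.65, adjusted p = 5.4e-05), *Tead4*, a partner of YAP (1.27, adjusted p = 1.02e-07), *Zhx3* (1.24, adjusted p = 2.93e-08) and *Vdr*, the vitamin D receptor (1.06, adjusted p = 0.00165), were higher.

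The response was compared between sample numbers, each with 2 aldosterone and 2 vehicle libraries. Across the 15245 genes, the log2 fold changes of the sample numbers had a Pearson's r of 0.744, a description across genes, which are not independent replicates. The response differed at an adjusted p of at most 0.05 in 4 genes (0.0262%). An unadjusted p under 0.05 was found in 817 of the 15245, close to the share of 0.05 that chance alone would pass. *Cdkn1c* had 5700.4, 6108, 5886 and 5907 with aldosterone and 685, 638, 1407 and 1309 with vehicle. The aldosterone libraries were level, while the vehicle libraries of sample number 2 lay above those of sample number 1, and the response in sample number 2 minus that in sample number 1 was -1.04 ± 0.0885 (SE, adjusted p = 0.000639) on the log2 scale. *Angptl7*, a secreted angiopoietin-like protein, was raised in both, with 5219, 5537, 7269 and 8154 with aldosterone and 905, 865, 724 and 729.9 with vehicle, and more so in sample number 2 (log2 fold changes 2.60 and 3.40, difference 0.80 ± 0.0924 (SE, adjusted p = 0.0111)). *Rrm2*, a subunit of ribonucleotide reductase, had 5036, 4943, 2054 and 2080.1 with aldosterone and 3418, 3348, 2009.9 and 2139 with vehicle, higher with aldosterone in sample number 1 but not in sample number 2 (0.56 and -0.00, difference -0.57 ± 0.0767 (SE, adjusted p = 0.0337)). *Rpl7a*, a ribosomal protein gene with processed pseudogenes whose shared reads are of unstated treatment, had 3197, 2766, 3778 and 4540.0 with aldosterone and 2832, 2805, 2136 and 2138 with vehicle (log2 fold changes 0.08 and 0.95, difference 0.88 ± 0.117 (SE, adjusted p = 0.0337)). When any library was left out 0 genes passed, which leaves 1 library in an arm, so these differences rest on all 8 libraries.

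**Figure D5:**
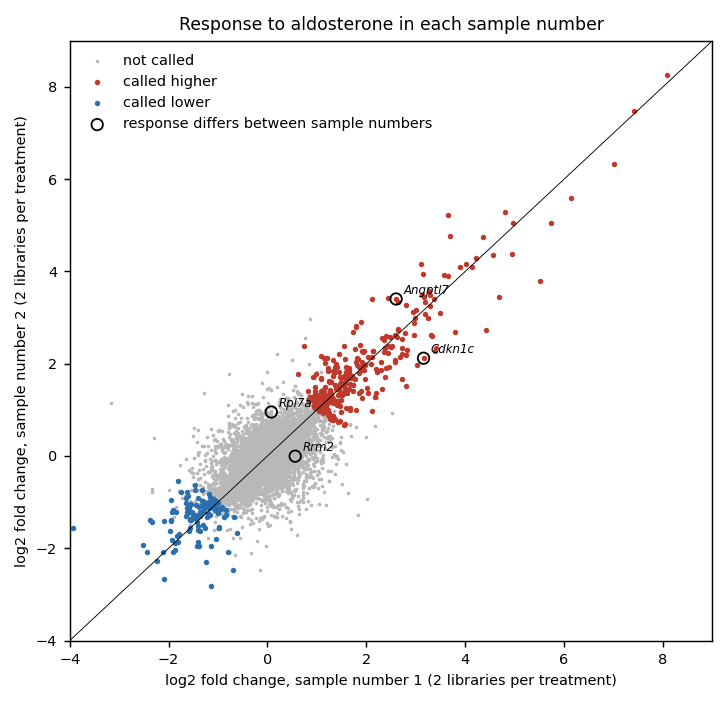
Log2 fold change of aldosterone over vehicle in sample number 1 (horizontal axis) and sample number 2 (vertical axis), 2 libraries per treatment in each, for 15245 genes. Red and blue points are genes called higher and lower over all libraries, the line marks equal response, and circles mark the 4 genes whose response differed, with *Cdkn1c* below the line and *Angptl7* above it.

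The MR antagonist spironolactone was deposited in tables normalized separately, and its comparisons share the aldosterone or the vehicle libraries with the one described here. For *Fkbp5* the log2 fold change was 4.26 for aldosterone over vehicle, 4.01 for aldosterone over spironolactone and 0.26 for spironolactone over vehicle. These values carry the shared libraries, so they are given without a test. In the same order, they were 2.69, 2.59 and 0.10 for *Tsc22d3*, 1.97, 1.90 and 0.08 for *Postn*, and -1.57, -1.39 and -0.17 for *Hgf*.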

How the data were processed

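RNA from fibroblast cultures was sequenced in 12 libraries, of which the 4 aldosterone and 4 vehicle libraries were compared. The authors deposited normalized counts, a signal per gene in which raw counts had been divided by a size factor for each library. The submitters' processing notes name HISAT2 2.0.5, featureCounts 1.5.0-p3 and the build mm39, whereas the study's methods name mm9, and the coordinates given are those of the deposited table. Strand setting and the treatment of reads shared by near-identical genes were not given in the sources used here. The deposited fold changes and p-values were not used.

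All deposited values came out as whole reads within a tolerance of 0.01 (100%), with 19136812 to 30219075 reads per library (median 24913041). Intervals and floors cover counting error only. The main test was limma 3.58.1 (R 4.3.3) on log2(normalized count + 1), a scale that understates changes of low genes, over all 27319 genes, with Benjamini-Hochberg adjustment over all of them and then restricted to means of at least 10. The call threshold was an adjusted p of 0.05 together with a log2 fold change of 1 in either direction. The scripts were tested on simulated data, with changes above the call threshold planted only in genes of higher counts. The simulated libraries held no difference in level between sample numbers. That test therefore does not cover such differences, changes near the threshold or genes of low counts. Alternatives were the sample number as a block, edgeR 4.0.16 and DESeq2 1.42.0 on the recovered reads, a pseudocount of 0.5, the filter before the fit, TMM scaling, plates averaged, and each library left out.

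Samples of the same sample number deviated together (mean correlation of deviations from group means 0.222, between 0.194 and 0.251 over 8 pairs), and those of the same biological replicate number did not (-0.0133). The sample number, taken from the labels, was therefore used as the block in the alternative fit. The main test had no block, and calls, adjusted p-values and leave-outs are without it except where the block is named. Named genes were the 15 highest and 10 lowest called log2 fold changes without overlap at a mean of at least 100, the 5 in each direction at lower means, the 5 in each direction with the largest change of the mean, the called genes of each list (where none was called, the 2 of smallest adjusted p), and the genes whose response differed between sample numbers. Names outside this rule were chosen after their values were seen. The genes, lists and tests were chosen with earlier results of these data known. Promoter sequences are from RefSeq. A few genes of the lists are counted but not reported here by name.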

Additional observations from a re-analysis of the deposited data

Results flagged for a closer look

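In groups of 4 libraries, a library that stands apart was looked for in 49 genes, or 98 groups, as the gap to the nearest other library divided by the whole range of the group, against Dixon's 95% critical value for 4 samples. Chance flags about 1 group in 20, and 4 were past it. The gap was 0.860 for *Ace* with vehicle, 0.848 for *Dbp* with aldosterone, 0.840 for *Ifi207* with vehicle and 1 for *Fam107a* with vehicle, in which a single vehicle library had any read.

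The response to aldosterone differed between the sample numbers by an interaction term in limma for *Cdkn1c* (-1.04 on the log2 scale, sample number 2 minus sample number 1), *Angptl7* (0.80), *Rrm2* (-0.57) and *Rpl7a* (0.88). *Angptl7* overlaps *Mtor* on the other strand.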

How the results depend on the processing

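No named call changed direction under any alternative run. The balance of the list counts at any fold change did shift in some lists. With the block, TGF-beta and BMP genes went from 8 higher and 7 lower to 13 and 20. Cyclins and CDK inhibitors went from 6 and 5 to 6 and 9. With the sample number as a block, 4341 genes passed an adjusted p of 0.05 at any fold change, against 2704 without it, 320 were called higher and 154 lower, and none of the 124 named calls was lost. Of the list counts at any fold change, 20 moved by over 1.5 times with the block and 40 did not. With the plates of a sample number averaged, 784 passed at any fold change and 53 were called lower, and 22 of the named calls were lost. Without 1 library, between 1652 and 2115 genes passed at any fold change, between 258 and 274 were called higher and between 69 and 88 lower. DESeq2 did not call *Penk*, and TMM scaling did not call *Sema3c* or *Nrg1*. The number of genes whose response differed between sample numbers was 4, and 2 with a pseudocount of 0.5, 11 with the filter before the fit, 12 with edgeR and 0 to 0 without 1 library. The cause of these differences was not tested. Replicate plates came from 2 mice, so that spread between animals is hardly sampled, and genes of few reads with vehicle have fold changes that depend on the pseudocount.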

Other observations

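Families of neighbouring, near-identical genes were examined after their values were seen. In the *Serpina3* cluster of serine protease inhibitors on chromosome 12 (104094255 to 104380588), 6 of the 8 genes in the table had a mean of at least 10, and 4 were called higher: *Serpina3c* (log2 fold change 2.44), *Serpina3f* (1.72), *Serpina3m* (8.17) and *Serpina3n* (3.78). *Serpina3g* (0.25, adjusted p = 0.591) and *Serpina3h* (-0.02, adjusted p = 0.966), which lie between them, did not pass the limma test. Of the flavin monooxygenase genes, *Fmo1* and *Fmo2* were called higher among 3 with a mean of at least 10. *Fmo5*, on another chromosome, had a log2 fold change of 0.91 (adjusted p = 0.00197). How reads shared by members of a family were counted is not stated.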
